A study of Mus musculus with 72 samples.

Results

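Voltage-gated calcium channel subunits are described here through 7 genes, Cacna1a, Cacna1c, Cacna1d, Cacna1h, Cacna2d1, Cacnb2 and Cacnb3, which were taken by gene symbol from the expression table. All 7 were found among its 14604 genes. Islets of Langerhans came from male mice labelled as 8 weeks of age. The strains were C57BL/6J and BALB/cJ as well as DBA/2J, inbred lines for which the labels name no transgene or engineered allele. For 5, 13 or 33 days the mice ate either regular chow (RC) or a diet high in fat (HFD). The labels give the same age for each of these days. Each of the 69 libraries held the RNA of 120 to 150 hand-picked islets of 1 mouse after a night in culture, so that p-values measure the spread between mice. C57BL/6J gave 12 HFD and 11 RC libraries, DBA/2J 11 and 11, and BALB/cJ 12 and 12. Of the 18 groups of strain, diet and day, 15 held 4 libraries and 3 held 3, namely both day 33 RC groups of C57BL/6J and DBA/2J and the day 13 HFD group of DBA/2J.

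A voltage-gated calcium channel opens when the cell membrane depolarizes and lets calcium ions enter. Its pore is a single large alpha-1 protein, and auxiliary beta and alpha-2-delta proteins bring the pore to the membrane and tune its opening. In the beta cell, glucose metabolism closes ATP-sensitive potassium channels, the membrane depolarizes, and calcium entry through these channels triggers the release of insulin granules.

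Levels are given as log2 CPM, the log2 of read counts scaled to a common library size, as the authors deposited them. The libraries held 12292621 to 34591079 reads in the genes of the table (median 22756199). The lowest value the table holds is -3.54 log2 CPM, which stands for 0 reads, and none of the 7 genes came near it: Cacna1h had 65 to 403 reads per library, and Cacna1d, at the other end of the pore genes, had 2180 to 6236. The hormone genes Ins2, Ins1, Gcg, Sst and Ppy were present in all 69 libraries at mean levels of 16.9, 15.6, 15.2, 11.5 and 11.7 log2 CPM, and they mark beta, alpha, delta and PP cells. The libraries also held RNA of acinar, endothelial, stellate, smooth muscle, macrophage and nerve-associated marker genes, and the only markers absent from any library were Ghrl (in 1) and Ms4a1 (in 3). In such whole-islet RNA, fewer cells of a type and less RNA per cell cannot be told apart.

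Because longer transcripts collect more reads, levels were compared between genes per kilobase of exon. The length was that of all annotated exons of a gene merged, which can exceed that of the transcripts expressed. On that scale the 7 genes ran in the order Cacna2d1, Cacnb3, Cacna1d, Cacna1a, Cacna1c, Cacnb2 and Cacna1h. Cacna2d1, the alpha-2-delta subunit, had a median of 17.1 CPM per kilobase over the 69 libraries (10.2 to 29.5). Cacnb3, a beta subunit, had a median of 14.9 (11.3 to 22.1), and Cacna1d, an L-type pore, a median of 14.1 (11.1 to 19.5). These top genes traded places: Cacna2d1 was above Cacnb3 in 50 of 69 libraries, and Cacnb3 above Cacna1d in 38 of 69. Cacna1a, the P/Q-type pore, followed with a median of 8.20 CPM per kilobase (6.56 to 11.6). Cacna1c, the other L-type pore described here, had a median of 5.10 (4.10 to 6.60), and Cacnb2 one of 3.27 (2.43 to 4.08). Cacna1h, the T-type pore that opens at low voltage, was the least abundant at 0.893 CPM per kilobase (0.440 to 1.53). Within a library each of these later genes was below the gene before it in 69 of 69 libraries, although over all libraries only the ranges of Cacna1c and Cacnb2, and of Cacnb2 and Cacna1h, stayed apart.

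**Figure D1:**
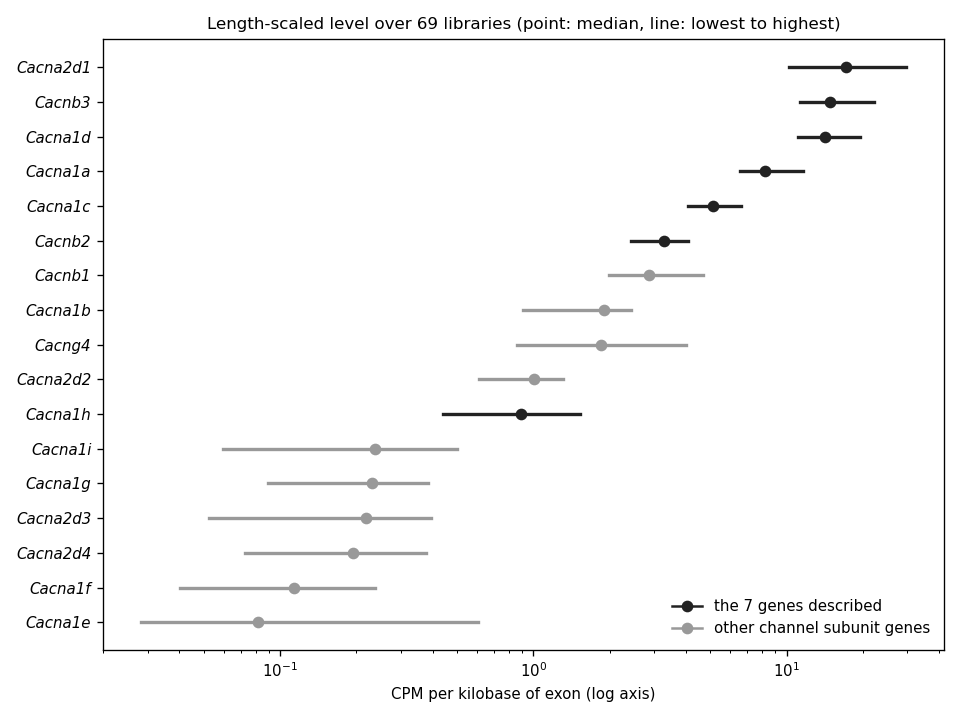
Length-scaled level of the 7 genes (black) and of 10 other channel subunit genes of the table (grey) in CPM per kilobase of exon on a log axis, with the median of 69 libraries as a point and the lowest and highest library as a line. Cacna2d1, Cacnb3 and Cacna1d overlap at the top with medians of 17.1, 14.9 and 14.1, while Cacna1h lies at 0.893.

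Of 19 other calcium channel subunit genes looked for, 10 were in the table, and all 10 had medians below that of Cacnb2. Cacnb1, a further beta subunit, had a median of 2.87 CPM per kilobase, Cacna1b, the N-type pore, 1.89, Cacng4, a gamma subunit, 1.86, and Cacna2d2 1.01. The remaining genes, the T-type pores Cacna1i (0.238) and Cacna1g (0.232), the alpha-2-delta genes Cacna2d3 (0.218) and Cacna2d4 (0.194), the L-type pore Cacna1f (0.114) and the R-type pore Cacna1e (0.0821), were all below Cacna1h. The last place of Cacna1e did not hold in DBA/2J, where its median was 0.383, beside 0.0549 in C57BL/6J and 0.0806 in BALB/cJ. In DBA/2J it stood above the other genes of this last group, though below Cacna1h (0.678).

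The genes lie on separate chromosomes. On the GRCm38 build with GENCODE M21 gene models, Cacna1a (ENSMUSG00000034656.17) spans chr8:84388440-84640246 on the plus strand, with 11418 bases of exon. Cacna1c (ENSMUSG00000051331.15) spans chr6:118587240-119196418 on the minus strand, with 21191 bases of exon. Cacna1d (ENSMUSG00000015968.17) spans chr14:30039939-30491455 on the minus strand, with 12621 bases, and Cacna1h (ENSMUSG00000024112.16) spans chr17:25374285-25433783 on the minus strand, with 9763 bases. All these are large genes of many exons. Cacna2d1 (ENSMUSG00000040118.15) spans chr5:15934691-16374511 on the plus strand, with 12416 bases of exon, and Cacnb2 (ENSMUSG00000057914.15) spans chr2:14603088-14987908 on the plus strand, with 13228 bases. Cacnb3 (ENSMUSG00000003352.13 in the deposited values, ENSMUSG00000003352.14 in M21) spans chr15:98630840-98644529 on the plus strand, with 4010 bases. Exons of other genes on the opposite strand overlap Cacna1d (Chdh, 589 bases), Cacna1h (Tpsg1, 158 bases), Cacna1a (Gm16183, 435 bases) and Cacnb2 (Gm10849, 618 bases; Gm13269, 239 bases; Gm10848, 111 bases). Whether reads were counted by strand is not given in the sources used here, so reads of these short stretches may belong to either gene.

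The diet comparison asked which islet transcripts changed on HFD. Averaged over the 3 strains and 3 days, 1 of the 7 genes passed the test (limma, Benjamini-Hochberg adjusted p under 0.05): Cacna1d rose on HFD. Among all genes 5.47% passed, 2.41% as higher. The 34 RC libraries held Cacna1d at 7.23 to 7.68 log2 CPM (median 7.45) and the 35 HFD libraries at 7.13 to 7.95 (median 7.59), and these ranges overlapped almost whole. The fitted difference was 0.09 ± 0.03 (SE) on the log2 scale, or 6.78%, with a limma adjusted p of 0.0439. The other 6 genes had differences of 0.01 (Cacnb2) to 0.10 (Cacna1h and Cacna2d1) with adjusted p-values of 0.169 to 0.879, and the median of the 7 was 0.09 beside 0.00 for all genes. The Cacna1d call was narrow: leaving out any of 35 of the 69 libraries (12 of C57BL/6J, 12 of DBA/2J, 11 of BALB/cJ) put its adjusted p at 0.0501 to 0.0747, and leaving out day 5, 13 or 33 put it at 0.618, 0.0551 and 0.0699. Over all genes the count of 799 became 28, 595 and 439 without these days.

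Within C57BL/6J, the pore genes Cacna1a, Cacna1c and Cacna1d rose on HFD, and Cacna1h, Cacna2d1, Cacnb2 and Cacnb3 did not pass the test. These calls were 3 of 7 higher and none lower, beside 14.6% of all genes called, 6.5% as higher. The median difference of the 7 genes was 0.19 on the log2 scale, beside -0.01 for all genes. The strain average contains these C57BL/6J libraries, so it is not a separate result.

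Cacna1d, an L-type pore that can open at comparatively low voltages, was at 7.43, 7.47, 7.47 and 7.56 log2 CPM in the C57BL/6J RC libraries of day 5 and at 7.89, 7.69, 7.81 and 7.85 in the HFD libraries of that day. On day 13 the RC libraries had 7.48, 7.43, 7.47 and 7.44 and the HFD libraries 7.64, 7.63, 7.70 and 7.73. On day 33 the RC libraries had 7.64, 7.59 and 7.63 and the HFD libraries 7.72, 7.83, 7.56 and 7.64. Every HFD library was thus above every RC library on days 5 and 13, and the diets overlapped on day 33. Over the days Cacna1d was 0.21 ± 0.05 higher on HFD (SE, log2), a rise of 15.3%, with a limma adjusted p of 0.00464, and all 12 HFD libraries lay above the RC median.

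Cacna1a, whose P/Q-type channels sit close to secretory granules at many release sites, had 6.39, 6.48, 6.54 and 6.63 log2 CPM on RC and 6.85, 6.74, 6.69 and 6.82 on HFD on day 5. On day 13 it had 6.40, 6.29, 6.55 and 6.39 on RC and 7.01, 6.53, 6.70 and 6.72 on HFD, and on day 33 6.35, 6.53 and 6.36 on RC and 6.58, 7.05, 6.43 and 6.54 on HFD. The diets were apart on day 5 and overlapped on days 13 and 33. The difference over the days was 0.28 ± 0.07 (SE, log2; 95% interval 0.14 to 0.41), a rise of 21.1%, with a limma adjusted p of 0.00470. All 12 HFD libraries exceeded the RC median and 8 of 12 exceeded every RC library, as also for Cacna1d.

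Cacna1c, the L-type pore best known from heart muscle and also present in beta cells, had 6.56, 6.72, 6.76 and 6.88 log2 CPM on RC and 7.13, 7.02, 6.88 and 6.90 on HFD on day 5. On day 13 the values were 6.71, 6.57, 6.55 and 6.64 on RC and 7.12, 6.85, 6.77 and 6.81 on HFD, and on day 33 they were 6.73, 6.77 and 6.56 on RC and 6.86, 6.97, 6.49 and 6.62 on HFD. The diets were apart on day 13, and the lowest library of all 23 was an HFD library of day 33. Cacna1c was 0.19 ± 0.06 higher (SE, log2; 95% interval 0.06 to 0.32), a rise of 14.2%, with a limma adjusted p of 0.0356 and 10 of 12 HFD libraries above the RC median. This call ended when any of 8 libraries was left out (HFD day 5 replicate 1, day 13 replicate 1 and day 33 replicate 2; RC day 5 replicate 1, day 13 replicates 2 and 3 and day 33 replicates 1 and 4), at 0.17 to 0.20 and adjusted p-values of 0.0525 to 0.0945. No single library ended the calls of Cacna1a and Cacna1d over the days.

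**Figure D2:**
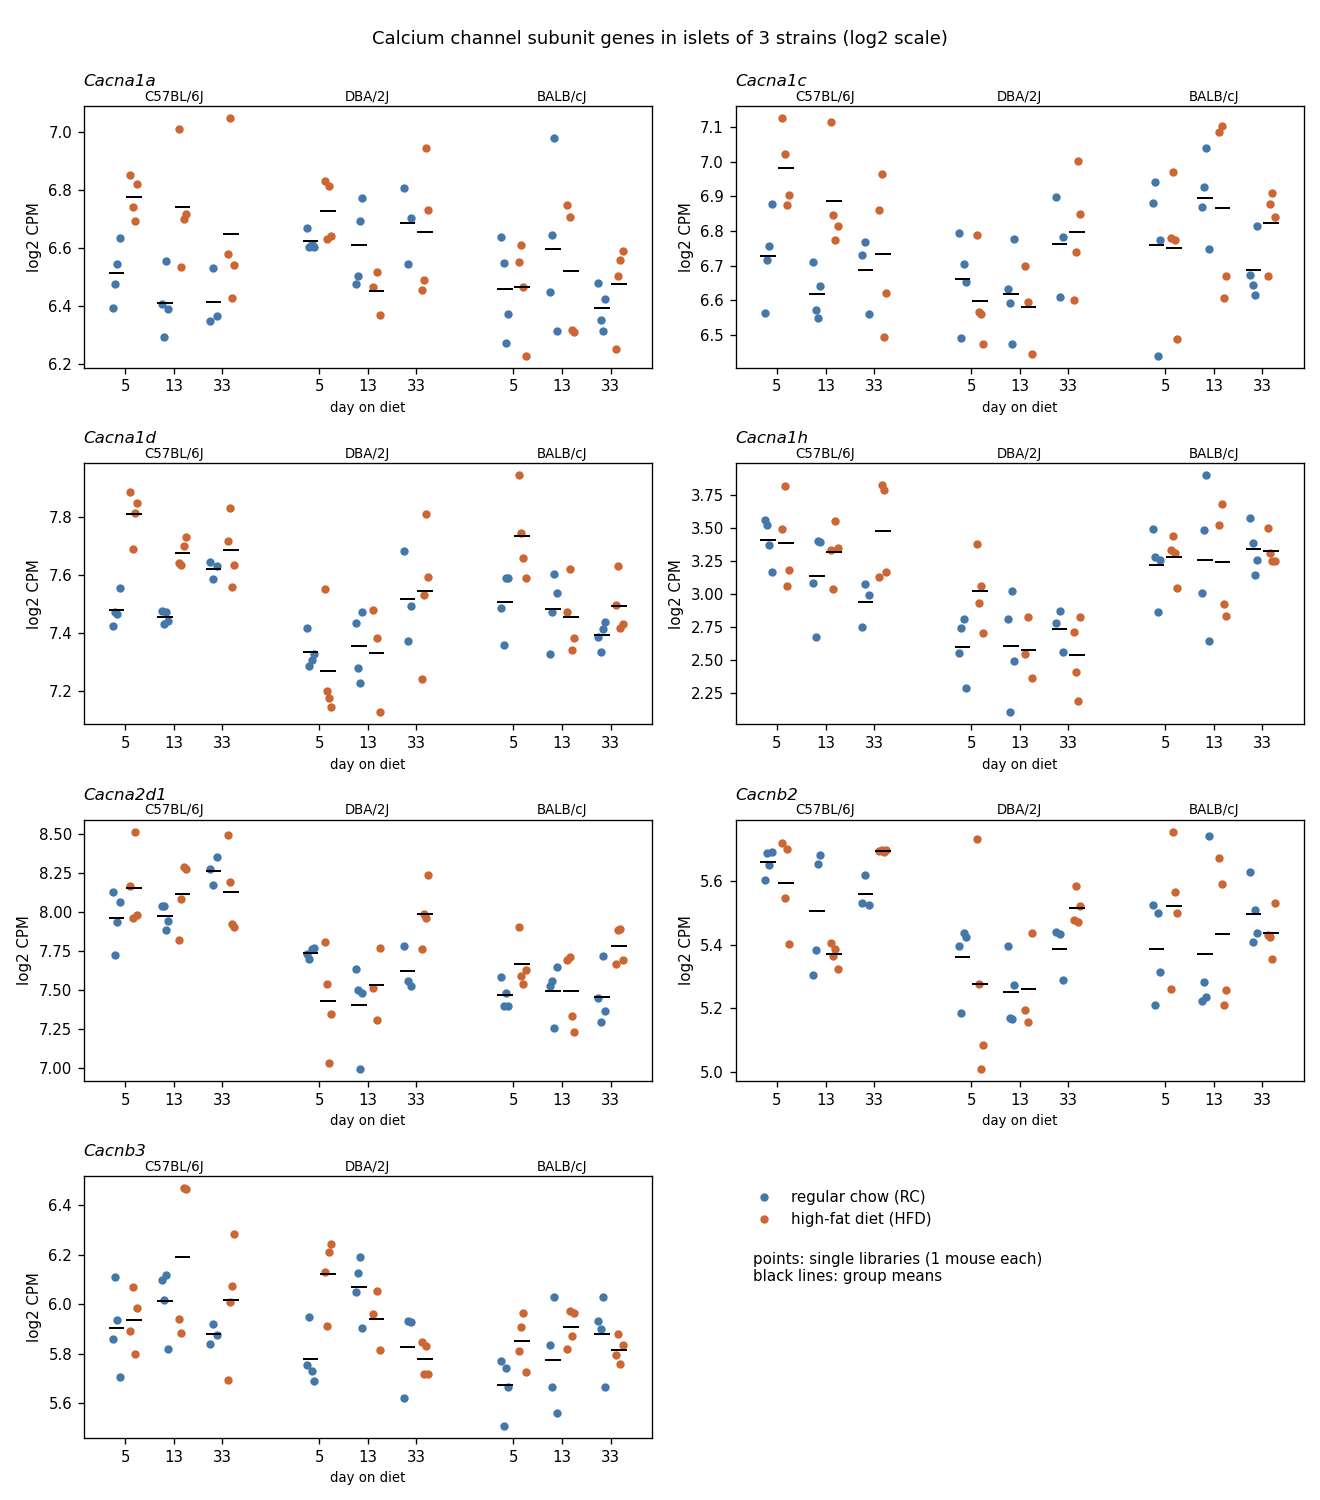
Level of each of the 7 genes in log2 CPM (vertical axes, each with its own scale) in single libraries of 1 mouse, by strain and day on diet, with RC in blue, HFD in orange and group means as black lines. In C57BL/6J the HFD points of Cacna1d lie above all RC points on days 5 and 13, and Cacna2d1 sits higher in C57BL/6J than in BALB/cJ on RC.

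The other 4 genes did not pass in C57BL/6J. Cacna1h had 2.67 to 3.56 log2 CPM on RC (median 3.17) and 3.04 to 3.82 on HFD (median 3.34), a difference of 0.23 ± 0.12 (SE; adjusted p 0.195). Cacnb3, at 5.70 to 6.12 on RC (median 5.92) and 5.69 to 6.47 on HFD (median 6.00), differed by 0.12 ± 0.06 (adjusted p 0.225). Cacna2d1, with 7.72 to 8.35 on RC (median 8.04) and 7.82 to 8.52 on HFD (median 8.12), had a limma adjusted p of 0.640. Cacnb2 had the same median of 5.62 on both diets, with ranges of 5.30 to 5.69 and 5.32 to 5.72, and an adjusted p of 0.869. The diets overlapped for all 4. The 95% intervals of the log2 difference ran from -0.01 to 0.48 for Cacna1h, from -0.01 to 0.24 for Cacnb3, from -0.10 to 0.23 for Cacna2d1 and from -0.15 to 0.11 for Cacnb2.

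Other measures were compared between the diets in C57BL/6J as well. Of 13 stellate cell and fibroblast markers 9 were called lower on HFD (median -0.67 on the log2 scale), and their summed level was 219 to 394 CPM on HFD and 341 to 543 on RC. Of 11 macrophage markers 2 were lower (sums of 116 to 199 on HFD and 151 to 329 on RC), as were 2 of 10 endothelial markers (557 to 759 and 598 to 739) and 1 of 12 beta cell markers (130112 to 257615 and 170268 to 225643), while none of 13 acinar markers was called (297 to 5324 and 432 to 9133). Among all genes 8.05% were called lower, and 1 of 12 beta cell markers is near that share. With the means of the acinar, endothelial, stellate and macrophage lists in the fit, Cacna1a and Cacna1d kept their calls and Cacna1c was at 0.15 (limma adjusted p 0.156). The numbers in the sample titles, whose meaning the labels do not give, did not overlap between the HFD and RC mice of C57BL/6J on day 5, while on days 13 and 33 the diets overlapped in them. With the title number as a covariate none of the calls held: Cacna1a was at 0.23 (adjusted p 0.608), Cacna1d at 0.23 (0.515) and Cacna1c at -0.11 (0.826), and over all genes 31 passed in place of 2125. Without day 5, where these numbers differ, Cacna1a stayed called, Cacna1c was at 0.16 (0.227) and Cacna1d at 0.14 (0.163). Without day 13 all these calls ended, with Cacna1a at 0.25 (limma adjusted p 0.0753), Cacna1c at 0.15 (0.267) and Cacna1d at 0.20 (0.0567), and without day 33 all held. Over all genes 641 passed without day 5, 581 without day 13 and 1784 without day 33.

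In DBA/2J none of the 7 genes passed over the days, and 0% of all genes did. By limma 599 of the 14604 genes had an unadjusted p under 0.05 in that comparison. The differences of the 7 genes ran from -0.03 (Cacna1a) to 0.06 (Cacna1h and Cacna2d1), each with an adjusted p of 0.999, and their median was 0.02 beside 0.01 for all genes. The 95% interval of Cacna1a was -0.17 to 0.11, of Cacna1c -0.15 to 0.11 and of Cacna1d -0.13 to 0.08. Cacna1a had 6.47 to 6.81 log2 CPM on RC (median 6.61) and 6.37 to 6.94 on HFD (median 6.63). Cacna1c had 6.47 to 6.90 on RC (median 6.65) and 6.44 to 7.0 on HFD (median 6.60), and Cacna1d 7.23 to 7.68 (median 7.37) and 7.13 to 7.81 (median 7.38). For all these pore genes the RC range lay within the HFD range. Cacna2d1 spanned 6.99 to 7.78 on RC (median 7.63) and 7.03 to 8.24 on HFD (median 7.76), and the diets overlapped.

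In BALB/cJ none of the 7 genes passed either, beside 0.151% of all genes. Cacna2d1 had the largest difference of the 7 in this strain, with 7.26 to 7.72 log2 CPM on RC (median 7.46), 7.23 to 7.90 on HFD (median 7.68) and a difference of 0.17 ± 0.08 (SE; limma adjusted p 0.430). Cacna1d had 7.33 to 7.60 on RC (median 7.46) and 7.34 to 7.95 on HFD (median 7.54), a difference of 0.10 ± 0.05 (adjusted p 0.480). Cacna1a and Cacna1c had differences of 0.00 and 0.03, with 95% intervals of -0.13 to 0.14 and -0.09 to 0.16. The median of the 7 was 0.05 beside 0.00 for all genes.

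**Figure D3:**
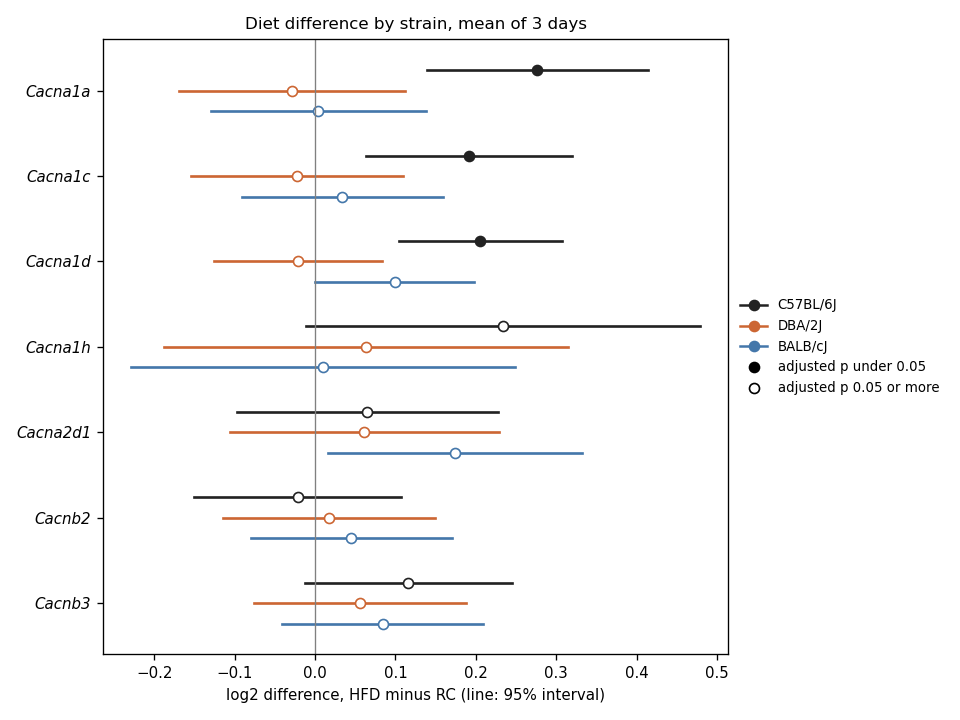
Fitted HFD minus RC difference of each gene on the log2 scale, as the mean of 3 days, in C57BL/6J (black), DBA/2J (orange) and BALB/cJ (blue), with the 95% interval as a line and filled points for a limma adjusted p under 0.05. Only Cacna1a, Cacna1c and Cacna1d in C57BL/6J are filled, at 0.28, 0.19 and 0.21.

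The test of whether the diet effect itself differed between strains called none of the 7 genes. Between DBA/2J and C57BL/6J, where 1.11% of all genes passed, the difference of the effect was -0.30 ± 0.10 for Cacna1a and -0.23 ± 0.07 for Cacna1d (SE, log2, DBA/2J minus C57BL/6J), each with a limma adjusted p of 0.0807, and Cacna1c had an adjusted p of 0.193. Between BALB/cJ and C57BL/6J, where 1.27% passed, the adjusted p was 0.106 for Cacna1a, 0.368 for Cacna1c and 0.465 for Cacna1d. Between BALB/cJ and DBA/2J 0% of all genes passed (472 at an unadjusted limma p under 0.05). The 3 strains are therefore not shown to differ in how their calcium channel genes responded to diet.

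At single days the groups were small, and 1 of 63 tests of the 7 genes passed. In C57BL/6J on day 5 Cacna1d, with the library values given above, rose by 0.33 ± 0.09 (SE, log2), or 25.7%, with a limma adjusted p of 0.0308, beside 1.87% of all genes called and 0.712% as higher. Leaving out any of 6 of its 8 libraries (HFD replicates 1, 3 and 4, RC replicates 1, 2 and 3) put it at 0.30 to 0.33 with an adjusted p of 0.0565 to 0.110, and with the marker means in the fit it was at 0.22 (0.181). On day 13 of C57BL/6J, with 1.04% of all genes called, Cacna1a, Cacna1c and Cacna1d had differences of 0.33, 0.27 and 0.22 and adjusted p-values of 0.125, 0.183 and 0.164. On day 33, with 0% of genes called (2180 at an unadjusted p under 0.05), they had 0.23, 0.05 and 0.07.

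Cacna1h had its widest diet difference in C57BL/6J on day 33, with 3.12, 3.82, 3.79 and 3.17 log2 CPM on HFD and 2.75, 3.07 and 2.99 on RC. The libraries did not overlap, and the difference was 0.54 ± 0.22 (SE; limma adjusted p 0.249). Cacnb2 was also apart in that group, at 5.69, 5.70, 5.69 and 5.70 on HFD and 5.53, 5.62 and 5.52 on RC. Every HFD library above every RC library was found for 2 of the 7 genes in C57BL/6J on day 5 (Cacna1a and Cacna1d; 4.87% of all genes), on day 13 (Cacna1c and Cacna1d; 4.5%) and on day 33 (Cacna1h and Cacnb2; 2.85%). In DBA/2J it was found for Cacnb2 on day 33 (6.68% of all genes). None of the 7 had every HFD library below every RC library on any day in any strain.

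DBA/2J showed different genes at its extremes on different days. On day 5, where 0.548% of all genes passed, Cacnb3 had 6.13, 5.91, 6.21 and 6.24 log2 CPM on HFD and 5.75, 5.95, 5.73 and 5.69 on RC. HFD replicate 2 lay among the RC values, and the difference of 0.34 ± 0.11 (SE) had a limma adjusted p of 0.0631. Cacna2d1 had 7.80, 7.54, 7.03 and 7.34 on HFD and 7.73, 7.70, 7.76 and 7.77 on RC, with -0.31 ± 0.14 (adjusted p 0.137). On day 33 the same gene had 7.76, 7.99, 7.96 and 8.24 on HFD and 7.78, 7.56 and 7.53 on RC, with 0.37 ± 0.15 (adjusted p 0.538), so its fitted sign differed between these days. Cacnb2 on day 33 had 5.48, 5.58, 5.47 and 5.52 on HFD and 5.44, 5.43 and 5.29 on RC, with an adjusted p of 0.791.

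On day 13 of DBA/2J 0% of all genes passed (599 at an unadjusted p under 0.05), and on day 33 0.0205% did. In BALB/cJ the shares were 0.315% on day 5, 0.00685% on day 13 and 0% on day 33 (669 at an unadjusted p under 0.05), again with none of the 7 genes. BALB/cJ on day 5 had Cacna1d at 7.95, 7.75, 7.66 and 7.59 on HFD and 7.49, 7.36, 7.59 and 7.59 on RC, a difference of 0.23 ± 0.09 (SE; limma adjusted p 0.256) in which the lowest HFD library met the highest RC libraries. Over the 9 strain-by-day differences, Cacna1a, Cacna1d, Cacna2d1 and Cacnb3 were above 0 in 6, Cacna1c and Cacnb2 in 5 and Cacna1h in 4.

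The change of the diet effect from day 5 to day 33 was called for none of the 7 genes. The shares of all genes called were 0.0205% in C57BL/6J, 0.0137% in DBA/2J and 0% in BALB/cJ, where 706 genes had an unadjusted limma p under 0.05. Cacna2d1 in DBA/2J came nearest, with 0.68 ± 0.20 (SE, log2; limma adjusted p 0.0763). On RC alone no gene of the 7 was called between day 33 and day 5, beside 0.123% of all genes in C57BL/6J and 0.00685% in each of DBA/2J and BALB/cJ. The largest of these differences in C57BL/6J were -0.47 for Cacna1h (adjusted p 0.367) and 0.30 for Cacna2d1 (adjusted p 0.379).

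The strain comparison set the RC libraries of the strains beside each other. On RC, DBA/2J islets held less Cacna2d1, Cacna1h and Cacnb2 and more Cacna1a than C57BL/6J islets, which is 4 of 7 genes beside 54.5% of all genes called (27.6% as lower, 26.9% as higher). BALB/cJ islets held less Cacna2d1, Cacnb2 and Cacnb3 than C57BL/6J islets, which is 3 of 7 beside 56.3% of all genes (28.6% as lower). Between BALB/cJ and DBA/2J only Cacna1h passed, higher in BALB/cJ, beside 35% of all genes called (17.4% as higher). These shares of the 7 genes are near or below the share of all genes, and the 3 strain comparisons and the diet comparisons all use the same RC libraries. The reads were mapped to the C57BL/6J reference genome, and the effect of that on the other strains was not tested.

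Cacna2d1, whose protein binds the outside of the pore and carries it to the membrane, had the largest strain difference from C57BL/6J to BALB/cJ. On RC it was at 7.72 to 8.35 log2 CPM in C57BL/6J (median 8.04), 6.99 to 7.78 in DBA/2J (median 7.63) and 7.26 to 7.72 in BALB/cJ (median 7.46). The C57BL/6J and BALB/cJ libraries did not overlap on RC, which held for 11% of all genes, but they did on HFD, with 7.82 to 8.52 and 7.23 to 7.90. On RC the DBA/2J range met the C57BL/6J range at its edge. Its log2 difference from C57BL/6J was -0.60 ± 0.08 (SE) in BALB/cJ (a change of -33.9%; limma adjusted p 8.6e-09) and -0.48 ± 0.08 in DBA/2J (-28.4%; 2.25e-06). None of the 7 genes was apart between C57BL/6J and DBA/2J (11.5% of all genes) or between DBA/2J and BALB/cJ (6.48%).

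Cacna1h separated DBA/2J from both other strains in the test. On RC its levels were 2.10 to 3.02 log2 CPM in DBA/2J (median 2.74), 2.67 to 3.56 in C57BL/6J (median 3.17) and 2.64 to 3.90 in BALB/cJ (median 3.27), and all these ranges overlapped. DBA/2J was lower than C57BL/6J, with a log2 difference of -0.51 ± 0.13 (SE), or -29.8%, and a limma adjusted p of 0.00052. BALB/cJ stood above DBA/2J by 54.3% (3.07e-05), and between BALB/cJ and C57BL/6J the adjusted p was 0.439. On HFD the ranges were 2.19 to 3.38 in DBA/2J, 3.04 to 3.82 in C57BL/6J and 2.83 to 3.68 in BALB/cJ.

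The cytoplasmic beta subunits and Cacna1a had smaller fitted differences. Cacnb2, which binds the pore from the inside, had on RC 5.30 to 5.69 log2 CPM in C57BL/6J (median 5.62), 5.17 to 5.44 in DBA/2J (median 5.40) and 5.21 to 5.74 in BALB/cJ (median 5.42). It was lower than in C57BL/6J in both, with log2 differences of -0.24 ± 0.07 (SE) in DBA/2J (-15.4%; limma adjusted p 0.00173) and -0.16 ± 0.06 in BALB/cJ (-10.3%; 0.0341). Cacnb3, which is abundant in brain and islets, had 5.70 to 6.12 in C57BL/6J (median 5.92) and 5.51 to 6.03 in BALB/cJ (median 5.76), a log2 difference of -0.16 ± 0.06 (-10.3%; 0.0336). Cacna1a had 6.29 to 6.63 in C57BL/6J (median 6.40) and 6.47 to 6.81 in DBA/2J (median 6.61), a difference of 0.19 ± 0.07 (14.4%; 0.0170). The ranges overlapped in each of these pairs. Cacna1c and Cacna1d were called in no strain comparison, with Cacna1d at -0.12 in DBA/2J against C57BL/6J (adjusted p 0.0524).

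Libraries and covariates mattered for the smaller of these calls. The BALB/cJ call of Cacnb2 ended without any of 10 of 23 libraries (C57BL/6J day 13 replicates 3 and 4 and day 33 replicate 2; BALB/cJ day 5 replicates 2 and 4, day 13 replicates 1, 2 and 3 and day 33 replicates 2 and 4; adjusted p 0.0507 to 0.0712), and that of Cacnb3 without any of 8 (C57BL/6J day 5 replicate 2, day 13 replicates 1 and 3 and day 33 replicate 2; BALB/cJ day 5 replicate 2, day 13 replicates 2 and 4 and day 33 replicate 4; 0.0545 to 0.0776). The calls of Cacna2d1, Cacna1h, Cacna1a and of Cacnb2 in DBA/2J held without any single library. With the title number as a covariate Cacnb2 was at -0.25 in DBA/2J (limma adjusted p 0.0547) and -0.16 in BALB/cJ (0.242), Cacnb3 at -0.01 (0.942) and Cacna1a at 0.18 (0.158), and after quantile normalization Cacnb2 and Cacnb3 in BALB/cJ were each at -0.13 (0.0818 and 0.0757).

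Markers of other cells were compared between strains as well. Relative to C57BL/6J on RC, 13 of 13 acinar, 8 of 10 endothelial and 4 of 13 stellate markers were called higher in DBA/2J and 6 of 11 macrophage markers lower, with 1 endothelial marker lower. In BALB/cJ 10 of 13 acinar, 7 of 10 endothelial, 11 of 13 stellate and 6 of 9 Schwann cell and neuron markers were higher and 4 of 11 macrophage markers lower. Among all genes 26.9% were called higher and 27.6% lower in DBA/2J, and 27.7% and 28.6% in BALB/cJ. The stellate count in DBA/2J and the macrophage count in BALB/cJ are near these shares. The summed stellate level was 341 to 543 CPM in C57BL/6J, 494 to 717 in DBA/2J and 456 to 1003 in BALB/cJ, and the endothelial sum 598 to 739, 692 to 907 and 789 to 988. With the 4 marker means in the fit Cacna2d1 was at -0.10 in DBA/2J (limma adjusted p 0.648) and -0.20 in BALB/cJ (0.288), Cacnb2 at -0.09 (0.613) and 0.04 (0.828), and Cacna1a at 0.23 (0.138), so that these calls ended. The calls of Cacna1h and the BALB/cJ call of Cacnb3 held in that fit. Over all genes 3466 passed in DBA/2J in place of 7954, and 3662 in BALB/cJ in place of 8225. No islet endocrine markers were in the fit. Delta cell markers, whose mean had a Pearson's r of 0.56 with Cacna1h within groups, summed on RC to 1965 to 3114 CPM in C57BL/6J. Their sums were 2352 to 4478 in DBA/2J and 3204 to 4933 in BALB/cJ, and their part in the Cacna1h calls was not tested.

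**Figure D4:**
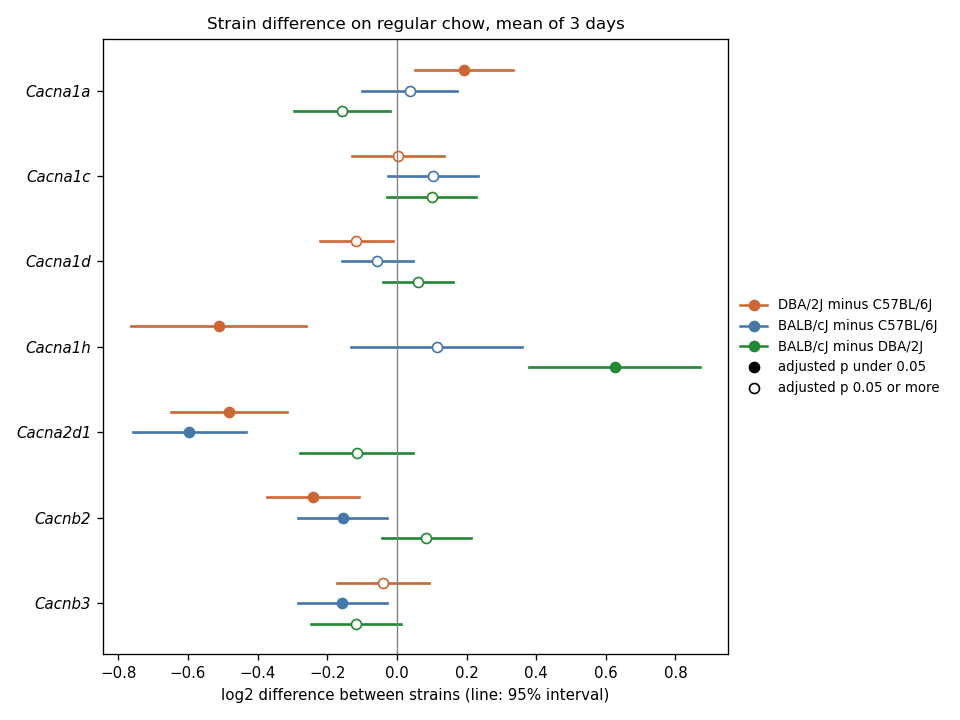
Fitted strain difference of each gene on RC, on the log2 scale as the mean of 3 days, for DBA/2J minus C57BL/6J (orange), BALB/cJ minus C57BL/6J (blue) and BALB/cJ minus DBA/2J (green), with the 95% interval as a line and filled points for a limma adjusted p under 0.05. Cacna2d1 lies at -0.48 and -0.60 against C57BL/6J, and Cacna1h is low in DBA/2J against both other strains.

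Promoter sequences are shown for the L-type pores, which were both called higher on HFD in C57BL/6J, and for Cacna2d1, which had the largest difference of the 7 genes between C57BL/6J and BALB/cJ. RefSeq windows of the GRCm38.p6 build were found for 5 of the 7 genes (10 start sites), and the 250 bases before a start are printed 5′ to 3′ on the strand of the gene. Capitals mark the GC box GGGCGG or its complement CCGCCC, a motif bound by Sp-family factors, where neighbouring matches can share bases. For Cacna1c the first 2 of 3 windows are printed.
Cacna1c start 1, chr6:119196410-119196659, minus strand: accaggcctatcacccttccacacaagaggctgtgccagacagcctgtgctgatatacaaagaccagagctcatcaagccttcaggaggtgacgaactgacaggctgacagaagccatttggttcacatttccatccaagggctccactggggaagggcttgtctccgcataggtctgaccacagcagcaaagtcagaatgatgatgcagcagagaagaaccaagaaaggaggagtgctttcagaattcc
Cacna1c start 2, chr6:119108496-119108745, minus strand: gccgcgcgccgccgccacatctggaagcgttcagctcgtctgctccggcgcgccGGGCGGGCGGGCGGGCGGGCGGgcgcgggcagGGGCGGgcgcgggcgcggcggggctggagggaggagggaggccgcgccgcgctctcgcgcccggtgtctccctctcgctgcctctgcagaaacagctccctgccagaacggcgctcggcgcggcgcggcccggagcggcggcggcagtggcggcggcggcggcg
Cacna1d start 1, chr14:30491157-30491406, minus strand: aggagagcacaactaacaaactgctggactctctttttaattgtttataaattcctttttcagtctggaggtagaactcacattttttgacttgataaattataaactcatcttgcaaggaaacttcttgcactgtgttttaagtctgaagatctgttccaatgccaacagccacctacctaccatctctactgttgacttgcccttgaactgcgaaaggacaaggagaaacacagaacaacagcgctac
Cacna1d start 2, chr14:30353487-30353736, minus strand: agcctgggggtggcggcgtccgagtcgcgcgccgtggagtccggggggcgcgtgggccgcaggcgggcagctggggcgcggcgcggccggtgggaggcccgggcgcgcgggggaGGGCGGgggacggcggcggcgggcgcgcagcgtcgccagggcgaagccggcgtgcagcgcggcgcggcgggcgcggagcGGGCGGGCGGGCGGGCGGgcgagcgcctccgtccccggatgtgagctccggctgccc
Cacna2d1 start 1, chr5:15934441-15934690, plus strand: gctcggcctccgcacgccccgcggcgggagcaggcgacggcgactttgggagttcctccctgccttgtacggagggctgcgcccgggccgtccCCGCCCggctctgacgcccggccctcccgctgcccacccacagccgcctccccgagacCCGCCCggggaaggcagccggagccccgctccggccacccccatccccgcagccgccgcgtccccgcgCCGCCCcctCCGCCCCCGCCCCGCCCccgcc

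The windows of start 1 held 51.6% G and C in Cacna1c and 39.6% in Cacna1d, each with 2 CpG dinucleotides and no GC box. The third Cacna1c window (chr6:118757975-118758224, minus strand), farthest downstream, held 50.4% with 5 CpG and no GC box. Those of start 2 held 82.8% G and C with 48 CpG and 6 GC boxes in Cacna1c, and 86.4% with 50 CpG and 5 GC boxes in Cacna1d. The Cacna2d1 window resembled the latter, with 82.4%, 36 CpG and 6 GC boxes. Over 32851 RefSeq windows of the same length the median was 52.4% G and C (quartiles 45.2% and 61.2%) with 6 CpG, and 32.7% held a GC box on either strand. The TATA box TATAAA, found in 12.4% of all windows, occurred 3 times over both strands in the window of Cacna1d start 1. Matches on opposite strands that share bases were counted separately there. The E-box CACGTG (6.02% of windows) and the cAMP response element TGACGTCA (1.55%), searched on both strands, were in none of the 10 windows, which says only that these letters are not in these bases. The counts are per gene, so they do not tell which start was used.

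Within groups, the high-voltage pore genes Cacna1a, Cacna1c and Cacna1d varied together from mouse to mouse. After the mean of each of the 18 groups was removed, Cacna1a and Cacna1c had a Pearson's r of 0.79 over the 69 libraries (Spearman's rho 0.79, and r 0.79 without the 2 libraries farthest from the median of Cacna1a). Cacna1c and Cacna1d had an r of 0.54, and Cacna1a and Cacna1d 0.49. The T-type gene Cacna1h had an r of 0.48 with Cacna1a, 0.30 with Cacna1c and 0.11 with Cacna1d. Of the auxiliary genes, Cacna2d1 went with Cacnb2 (0.42) and Cacna1d (0.41) and against Cacnb3 (-0.32), the lowest of the 21 pairs. Cacnb3 had values of -0.23 to 0.07 with the high-voltage pore genes. These are descriptions, since both genes of a pair share the library, its depth and its mixture of cells. Of the marker list means, that of delta cells had an r of 0.56 with Cacna1h and that of endothelial cells one of -0.55 with Cacna1d.

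**Figure D5:**
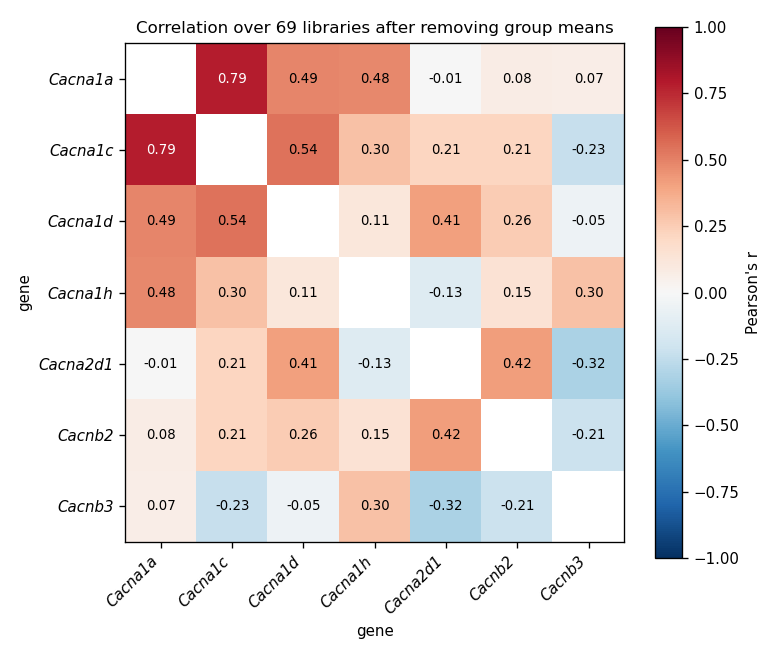
Pearson's r between the log2 CPM of each pair of genes over 69 libraries after group means were removed, with color from -1 to 1 and the value in each cell. The pore genes Cacna1a, Cacna1c and Cacna1d form the block of 0.49 to 0.79, and Cacnb3 is at or below 0.07 with all of them.

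The genes whose pattern over the 18 group means was most like that of each gene were found by Pearson's r, among protein-coding genes outside the lowest 25% by level. They were Dennd4b (0.87), Ttll3 (0.85) and Tada2a (0.84) for Cacna1a, and Ttll4 (0.87), Zfp369 (0.85) and Dhx33 (0.83) for Cacna1c. Cacna1d had Atxn7 (0.92), Otud4 (0.90) and Dicer1 (0.89), and Cacna1h had Ccdc9 (0.93), Plekha7 (0.92) and Ccdc184 (0.91). Cacna2d1 had the closest neighbours, with Fbxo3 (0.96), Cpd (0.96) and Tor1aip2 (0.95). Cacnb2 had Abcc1 (0.85), Ppm1k (0.84) and Txlng (0.84), and Cacnb3 had Ubtf (0.90), Lrfn4 (0.87) and Tns2 (0.87). These are the top of all genes searched and thus selected for likeness.

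Among the 10 other subunit genes, Cacna1e and Cacna1i had the widest fitted differences from C57BL/6J on RC. Cacnb1, Cacna1g and Cacna2d3 were called in no strain comparison. On RC the R-type pore Cacna1e was at 3.05 to 3.74 log2 CPM in DBA/2J (median 3.22), 0.49 to 1.63 in BALB/cJ (median 1.02) and -0.45 to 0.49 in C57BL/6J (median 0.05), so that DBA/2J was apart from both. The difference from C57BL/6J was 3.19 ± 0.15 in DBA/2J (SE, log2; limma adjusted p 2.15e-27) and 1.04 in BALB/cJ (8.04e-09). Cacna1i, a T-type pore, was higher than in C57BL/6J by 1.31 in DBA/2J and 2.02 in BALB/cJ, with both strains apart from C57BL/6J on RC. On HFD the DBA/2J and C57BL/6J ranges of Cacna1i overlapped, while BALB/cJ stayed apart from C57BL/6J. Of all genes on RC, 11.5% were apart between C57BL/6J and DBA/2J, 11% between C57BL/6J and BALB/cJ and 6.48% between DBA/2J and BALB/cJ. The N-type pore Cacna1b was lower in DBA/2J than in C57BL/6J (-0.63; 2.22e-11), with 3.18 to 3.85 there, 4.08 to 4.42 in C57BL/6J and 4.09 to 4.60 in BALB/cJ. Of the 10 genes, 3 were higher and 3 lower in DBA/2J than in C57BL/6J, 3 higher and 1 lower in BALB/cJ than in C57BL/6J, and 4 higher and 2 lower in BALB/cJ than in DBA/2J. The shares of all genes called in these comparisons were 54.5%, 56.3% and 35%.

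On HFD in C57BL/6J 1 of these 10 genes was called higher and 1 lower, beside 14.6% of all genes called. Cacna2d4, an alpha-2-delta gene of low level, had 1.03 to 1.84 log2 CPM on RC (median 1.55) and -0.02 to 1.52 on HFD (median 1.00), and fell by 0.53 ± 0.13 (SE, log2; limma adjusted p 0.00501). Over all strains it fell by 0.49 ± 0.08 (4.19e-05), with values of -0.62 in DBA/2J (0.436) and -0.33 in BALB/cJ (0.358). Cacna1e rose by 0.51 ± 0.14 (0.0115), from -0.45 to 0.49 on RC to -0.49 to 1.19 on HFD, ranges that overlap. That call ended with limma voom on recovered reads (0.54; 0.0563) and without day 5 (0.50; 0.0786) or day 13 (0.41; 0.157). Both ended with the title number as a covariate, where Cacna2d4 was at -0.74 (0.373) and the sign of Cacna1e reversed, at -0.18.

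Genes that act with the channels were counted on HFD in C57BL/6J beside the 14.6% of all genes called. Of 17 channel modulators 2 were higher. Stac3, an adaptor of L-type channels in muscle and of low level here (mean 0.09 log2 CPM), rose by 0.89 (limma adjusted p 0.0140). Camk2b, a kinase subunit activated by calcium and calmodulin, rose by 0.14 (0.0262). Of 22 calcium pumps, exchangers and release channels 2 were higher and 3 lower. Among them were the endoplasmic reticulum pump gene Atp2a2 at -0.25 (0.00879), the inositol trisphosphate receptor gene Itpr3 at 0.22 (0.0423) and Slc8a2 at 0.28 (0.0381). The medians of these lists were -0.05 and -0.02, beside -0.01 for all genes. Of 26 sodium, potassium and cation channels of excitability 4 were higher and none lower, with a list median of 0.03. They were Trpm2, a calcium-permeable cation channel (0.58; 6.28e-05), Kcnh6, a potassium channel (0.44; 0.000227), Scn8a, a sodium channel pore (0.40; 0.00108), and Abcc8, the sulfonylurea receptor of the ATP-sensitive channel (0.18; 0.0337). Of 19 tethering and exocytosis genes 4 were higher and none lower, with a median of 0.09: Syt7, a calcium sensor of exocytosis (0.16; 0.00216), and the SNARE genes Vamp2 (0.20; 0.00501), Stx1a (0.24; 0.0313) and Snap25 (0.20; 0.0470).

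In DBA/2J and BALB/cJ no gene of these 4 lists was called with diet, beside 0% and 0.151% of all genes, so this says little about the lists. The difference between strains passed for Kcnh6, whose diet effect differed from that in C57BL/6J by -0.49 in DBA/2J (limma adjusted p 0.0339) and -0.53 in BALB/cJ (0.0171), and for Trpm2, with -0.58 in DBA/2J (0.0364). Including the subunit genes of the preceding lists, 15 named calls stood in C57BL/6J, of which none held with the title number as a covariate, 8 with the marker means, and 6, 5 and 9 without day 5, 13 and 33. The strain differences named above for Kcnh6 and Trpm2 ended with the title number as well.

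On RC these lists were counted beside 54.5% of all genes called from C57BL/6J to DBA/2J and 56.3% from C57BL/6J to BALB/cJ. From C57BL/6J to DBA/2J 4 modulators were higher and 4 lower of 17, 6 and 8 of the 22 pump and release genes, 6 and 15 of the 26 excitability channels, and 5 and 5 of the 19 exocytosis genes. From C57BL/6J to BALB/cJ the counts were 5 and 4, 3 and 8, 6 and 10, and 4 and 4. Rem2, a small GTPase that inhibits calcium channels, was lower in DBA/2J than in C57BL/6J (-0.70, limma adjusted p 1.25e-06), and its relative Gem was lower in BALB/cJ (-1.58, 1.82e-11). Rem1, a further relative of low level, went the other way, higher by 1.61 in DBA/2J (1.18e-09) and by 1.26 in BALB/cJ (2.98e-07). Kcnj11, the pore of the ATP-sensitive channel, was lower in DBA/2J (-0.64; 1.64e-14).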

How the data were processed

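Islet RNA of 72 mice was profiled, and 69 libraries with values were used; 3 samples, from the groups with 3 libraries, were not analysed here. Per the labels' protocols, 250 ng of RNA with quality numbers of 8.2 to 9.3 went into stranded, poly(A)-selected libraries read as 125 bp single ends. Per the submitters' processing notes, the GRCm38 build, HTSeq 0.9.1, STAR 2.5.3a and edgeR were used. The authors deposited log2 CPM values scaled between libraries, with 1 lowest value per library, from which whole reads were recovered for 100% of values within 0.05 reads. Strain C56BL/6J in a label was read as C57BL/6J, and days 5, 13 and 33 were taken from the sample labels, since the series text gives 5, 13 and 13.

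One mean per group of strain, diet and day was fitted over the 69 libraries (R 4.3.3, limma 3.58.1, lmFit and eBayes with trend). Contrasts averaged strains and days with equal weight, tests were two-sided, and Benjamini-Hochberg adjustment ran over the 14604 genes of each contrast, with 0.05 as threshold. The filter, log2 CPM above 0 in at least 4 libraries, removed no gene. The fit was tested on simulated data. Values after ± are standard errors for differences and SD for means. Levels per kilobase used merged exon lengths of GENCODE M21. The alternatives were median centring, quantile normalization, an added 1 CPM, a stricter and no filter, limma voom, single-strain fits, array weights, the title number as covariate or block, marker means as covariates, and leaving out each library or day.

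The genes and lists were chosen with earlier results of these data known. Named are the 7 genes, all other channel subunit genes found, up to 4 genes of lowest p per list among those called, up to 2 most abundant markers per cell type, and the 3 most similar genes of each of the 7. Of these, those that a result turns on are printed, and the values of some genes are not reported here. Replicate numbers follow accession order and pair nothing. Depth of 12292621 to 34591079 reads per library limits the precision mainly for low genes such as Cacna1h and Cacna1e.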

Additional observations from a re-analysis of the deposited data

Results flagged for a closer look

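Of 105 groups of 4 libraries tested over the 7 genes, 3 held a library far from the others by Dixon's criterion, which chance alone gives in about 1 group of 20. Cacna1d in DBA/2J HFD day 5 was at 7.55 log2 CPM in replicate 1 and at 7.15 to 7.20 in the other libraries. Cacnb2 in DBA/2J RC day 5 was at 5.19 in replicate 2 and at 5.40 to 5.43 in the others. Cacnb2 in BALB/cJ RC day 13 was at 5.74 in replicate 4 and at 5.22 to 5.28 in the others. No difference of the diet effect between strains or days passed the test for any of the 7 genes.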

How the results depend on the processing

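Counts are of the 7 genes past the threshold unless all genes are named, and the causes of the changes were not tested. On all strains and days the count of 1 became 0 with median centring, with the title number or the marker means as covariates, and without day 5, 13 or 33, and 2 with array weights. Over all genes the 799 calls became 787, 428, 394, 28, 595 and 439 in these settings, and 3051 with array weights. In C57BL/6J the count of 3 became 5 with array weights, 0 with the title number, 1 without day 5 and 0 without day 13. Over all genes the C57BL/6J count of 2125 became 4876, 31, 641 and 581 in these settings. Array weights also gave 2 on C57BL/6J day 5, 4 on day 13, 2 on day 33, 4 on DBA/2J day 5, 1 on DBA/2J day 33, 2 for the difference of the diet effect between DBA/2J and C57BL/6J (Cacna1a and Cacna1d), 1 and 4 for its change from day 5 to day 33 in C57BL/6J and DBA/2J, and 3 for BALB/cJ against DBA/2J on RC. The title number left 0 on C57BL/6J day 5 and gave 2, 1 and 2 for DBA/2J against C57BL/6J, BALB/cJ against C57BL/6J and BALB/cJ against DBA/2J on RC. Marker means gave 0 on C57BL/6J day 5, 1 on day 13, and 1 for each of DBA/2J and BALB/cJ against C57BL/6J on RC. Over all genes on RC, DBA/2J against C57BL/6J had 7954 calls, 5370 with the title number and 3466 with marker means. BALB/cJ against C57BL/6J had 8225, 5309 and 3662. BALB/cJ against DBA/2J had 5113, 5170 and 4374, and 6439 with array weights. Directions reversed with the title number for Cacna1c (-0.11) and Cacna1e (-0.18) on HFD in C57BL/6J, and with marker means for Cacnb2 in BALB/cJ against C57BL/6J (0.0427). Leaving out single libraries gave 0 to 1 on all strains, 2 to 3 in C57BL/6J, 0 to 1 on C57BL/6J day 5, 0 to 1 on DBA/2J day 5, 0 to 1 for the DBA/2J and C57BL/6J difference of the diet effect, 0 to 1 for the change with day in DBA/2J, and 4 to 5, 1 to 3 and 1 to 2 for the strains on RC in the order above. The title number as a block (within-block correlation 0.0565) changed no count by more than 1.5 times. On RC, Cacna1d in DBA/2J against C57BL/6J passed with median centring (-0.14, limma adjusted p 0.0190), and Cacna1c in BALB/cJ with quantile normalization (0.15, 0.0444). Limma voom on the recovered reads was run in place of a count model, since the deposited values are logarithms. Replicate numbers follow accession order and pair no mice, so no block was made from them.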
